A study of Arabidopsis thaliana with 30 samples.

Results

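Dry ripened seed of Arabidopsis thaliana was compared with freshly harvested seed on 6 of the 30 one-colour Affymetrix arrays of a germination course, 3 arrays titled as dry seed and 3 titled as freshly harvested. All 30 arrays, in 10 groups of 3, held total RNA of whole seed of the ecotype Col-0, a natural accession with no transgene named in the labels. Dry seed (0 h) had been stored after harvest for 14 days of drying by one protocol entry and 15 days of ripening by the design text, and had not yet been plated. Freshly harvested seed (H) was collected at harvest, before that storage, and both groups used 80 mg of seed per extraction. The remaining 8 groups, used here for the later course, were plated on MS medium and held at 4 °C in the dark for 1, 12 or 48 h (stratification), or moved after that to continuous light at 22 °C for 1, 6, 12, 24 or 48 h. Every one of the 22746 probe sets that is not a spike-in or other control entered the comparison, out of 22810 on the array.

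Seed that has finished development on the mother plant carries a store of messenger RNA that survives drying, together with storage proteins, oil bodies and protective late embryogenesis abundant (LEA) proteins. During dry storage, called after-ripening, seed of many species loses dormancy while its water content is too low for active metabolism. Many of the genes described here belong to families known from pollen, the male gametophyte, whose grains and tubes remodel their own pectin wall and the walls they grow through with pectate lyases, polygalacturonases, pectin methylesterases and inhibitors of the last. Whole seed holds embryo, endosperm and seed coat, and in bulk RNA of this kind fewer cells of a type and less RNA per cell cannot be told apart.

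Dry seed differed from freshly harvested seed in few transcripts, and those that passed were all lower. A probe set was called where limma's Benjamini-Hochberg adjusted p was under 0.05 and the log2 difference, dry minus freshly harvested, was at least 1 in size. By this rule 73 probe sets were lower in dry seed, 0.321% of those tested, and 0 were higher (0%). With 1 in place of 16 added before the logarithm 127 were lower and 6 higher, and with 64 added 38 were lower and 0 higher. Intensities are the deposited, already normalized values on a linear scale. Differences are on a log2 scale with 16 added to each of them, which understates the change of dim transcripts, and ± after a log2 difference is the standard error from limma. The median difference over all probe sets was 0.01, 98.9% lay within 0.5 of 0, and the extremes were -3.72 and 0.74. On adjusted p alone 197 probe sets were lower (0.866%) and 167 higher (0.734%), and at an unadjusted p under 0.05 limma gave 953 lower and 1558 higher.

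In all 73 lowered probe sets the 3 dry arrays lay below the 3 freshly harvested arrays. Of all probe sets, 3.36% showed such a separation in this direction and 4.68% in the other. As the 73 were chosen on the difference between these arrays, their separation follows largely from that choice. The same holds for the separation given gene by gene below. Dry seed averaged under 16 units in 46 of the 73 and 32 or more in 13. With a fit to only the 6 arrays compared, in place of all 30, 28 of the 73 passed and 0 passed in the other direction, with 466 probe sets higher at an unadjusted p under 0.05. The fit to 30 arrays takes its spread from all groups, and the lowered probe sets were near the bottom of the scale in most of the later ones. Their intensities summed to 3445, 2409 and 2256 on the dry arrays, against 13055, 15520 and 14083 on the freshly harvested arrays. Dry replicate 1 had the highest sum of its group and freshly harvested replicate 1 the lowest of its own. The gap between the sums follows from the choice of the probe sets, and 1 unnamed probe set alone had 1493 of 3445 units on dry replicate 1 and 3439 of 13055 on freshly harvested replicate 1. Array medians were 12.3, 12.7 and 12.4 in dry seed, against 12.6, 12.3 and 11.9 in freshly harvested seed, and replicates correlated at 0.985 to 0.993 in dry seed and 0.992 to 0.994 in freshly harvested seed.

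**Figure D1:**
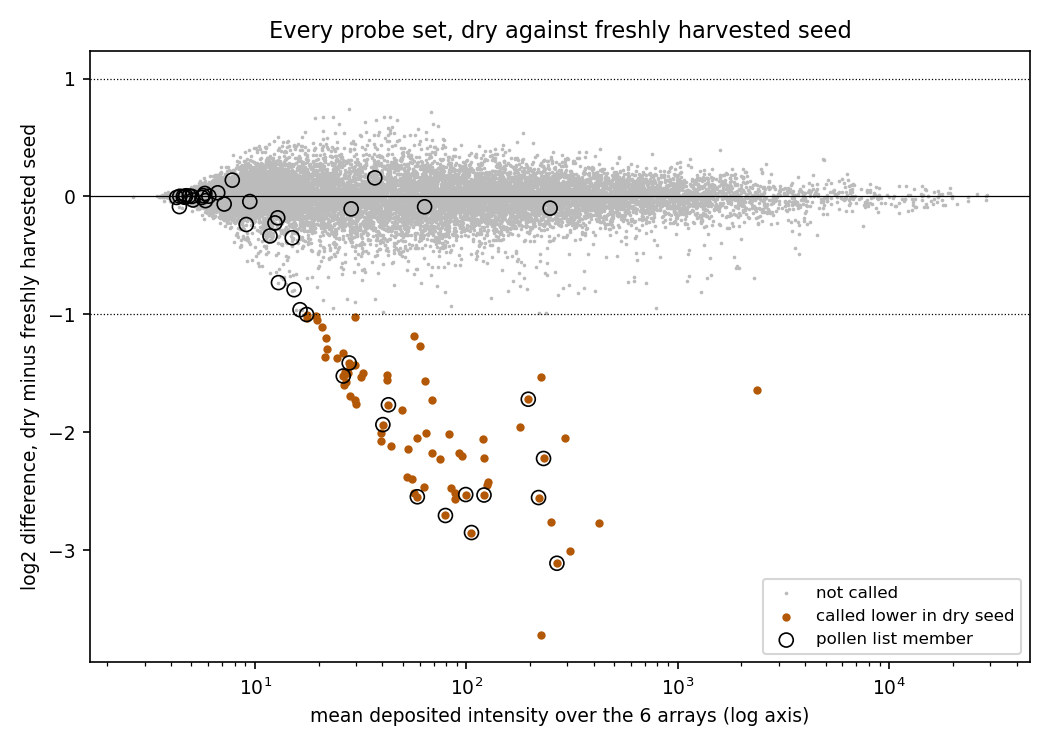
Each point is 1 of 22746 probe sets, with its mean deposited intensity over the 6 arrays (log axis) across and its log2 difference, dry minus freshly harvested seed, up; dashed lines mark the thresholds of 1 in size. The 73 called probe sets (orange) all lie below the lower line, no point reaches the upper one, and 14 of the 44 members of the pollen lists with a probe set (ringed) are among the called ones.

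Of the 73 lowered probe sets, 46 name exactly 1 gene, 4 name several and 23 are unnamed in the annotation used here. Enzymes that cut or modify pectin and members of the pectin methylesterase inhibitor family made up 14 of the 46 named genes, a grouping made after the values were seen and on no fixed list. How many members of these families are on the array was not counted, so 14 of 46 describes the lowered genes and is not set against a background.

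The pectin-modifying enzymes comprised 7 genes with a median log2 difference of -2.08. AT3G01270, a pectate lyase, which splits unesterified pectin, had 56.1, 49.3 and 25.8 in dry seed, against 409, 576 and 490.2 in freshly harvested seed (log2 difference -3.11 ± 0.18, adjusted p = 4.87e-11). Its highest dry value lay far below the lowest freshly harvested one, and dry replicate 3 was the lowest of all 6. Of the polygalacturonases, which hydrolyse the pectin backbone, AT3G07820 had 68.3, 33.3 and 58.8 in dry seed, against 343, 458 and 354 in freshly harvested seed (log2 difference -2.55 ± 0.13, adjusted p = 6.95e-12). AT5G48140 had 6.34, 7.98 and 6.96 in dry seed, against 58.3, 70.3 and 91.4 in freshly harvested seed (log2 difference -1.94 ± 0.096, adjusted p = 3.33e-12). Both separated the groups fully, and dry seed kept intensities above 30 for AT3G07820 on each array but below 10 for AT5G48140. AT5G07430 encodes a pectin methylesterase, an enzyme that removes methyl groups from pectin, and had 15.8, 22.00 and 15.5 in dry seed, against 143, 217 and 182 in freshly harvested seed (log2 difference -2.53 ± 0.13, adjusted p = 4.39e-12). A further methylesterase gene, AT3G17060, had 4.79, 5.13 and 5.09 in dry seed, against 55.6, 82.3 and 83.1 in freshly harvested seed (log2 difference -2.08 ± 0.068, adjusted p = 1.81e-15). In dry seed AT3G17060 was near 5 units on every array, with hardly any spread. AT5G15110, a further pectate lyase, had 9.61, 7.59 and 6.20 in dry seed, against 35.6, 57.2 and 51.1 in freshly harvested seed (log2 difference -1.41 ± 0.073, adjusted p = 4.90e-12). AT59, the remaining one, had 5.78, 7.44 and 5.77 in dry seed, against 28.3, 26.48 and 31.4 in freshly harvested seed (log2 difference -1.002 ± 0.027, adjusted p = 9.07e-17). Its change was the smallest that passed, with no overlap of the groups. It missed the size threshold at -0.98 without dry seed replicate 1, -0.98 without dry seed replicate 3 and -0.96 without freshly harvested seed replicate 3. In the fit to the 6 arrays alone AT3G07820 and AT5G15110 did not pass, with adjusted p = 0.0767 and 0.0983, and the other 5 genes did.

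The pectin methylesterase inhibitor family, small secreted proteins of which the characterised ones block pectin methylesterases or invertases, contributed 7 lowered genes with a median log2 difference of -2.17. AT4G02250 had 15.2, 5.45 and 8.21 in dry seed, against 145, 157 and 146 in freshly harvested seed (log2 difference -2.71 ± 0.10, adjusted p = 2.44e-14), the 3 freshly harvested arrays lying close together. AT1G10770 had 120.4, 55.3 and 49.1 in dry seed, against 363, 459 and 342 in freshly harvested seed (log2 difference -2.22 ± 0.18, adjusted p = 1.03e-08), with dry replicate 1 well above the other dry arrays and still below all freshly harvested ones. AT2G47050 had 42.6, 27.9 and 26.2 in dry seed, against 153, 245 and 231 in freshly harvested seed (log2 difference -2.22 ± 0.14, adjusted p = 1.18e-10). The groups did not overlap in any of these genes. Dry replicate 1 also stood high for AT5G50030, which had 53.3, 11.8 and 12.02 in dry seed, against 105, 194 and 179 in freshly harvested seed (log2 difference -2.17 ± 0.24, adjusted p = 3.59e-06). AT1G23350 had 6.22, 5.15 and 15.9 in dry seed, against 61.8, 136 and 92.8 in freshly harvested seed (log2 difference -2.14 ± 0.15, adjusted p = 9.76e-10), and here dry replicate 3 was the high one. APPB1 averaged 4.80 ± 0.0754 in dry seed and 48.1 ± 15.9 in freshly harvested seed (-1.60), where ± after a mean intensity is the SD of n = 3 arrays here and throughout. AT3G62180 averaged 6.74 ± 0.252 in dry seed and 36.6 ± 5.13 in freshly harvested seed (-1.20). In the fit to the 6 arrays alone AT4G02250 and AT3G62180 passed, and AT1G10770, AT2G47050, AT5G50030, AT1G23350 and APPB1 did not.

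Secreted peptides formed a smaller group of 3 lowered genes. RALFL26 and RALFL25 encode members of the RALF family, cysteine-rich peptides that act on receptor kinases and on the cell wall, and their loci lie 2 genes apart on chromosome 3. RALFL26 had 12.9, 10.7 and 13.3 in dry seed, against 116, 274 and 207 in freshly harvested seed (log2 difference -2.85 ± 0.16, adjusted p = 1.55e-11). RALFL25 had 11.3, 10.1 and 9.90 in dry seed, against 58.9, 94.5 and 71.8 in freshly harvested seed (log2 difference -1.77 ± 0.11, adjusted p = 7.72e-11). Both had their lowest freshly harvested value in replicate 1 and their highest in replicate 2, and dry seed varied little. With only the 6 arrays in the fit the adjusted p was 0.104 for RALFL26 and 0.0502 for RALFL25, so neither passed. LCR72, of a family of small cysteine-rich proteins resembling defensins, had 22.7, 40.8 and 24.02 in dry seed, against 85.3, 101 and 87.2 in freshly harvested seed (log2 difference -1.27 ± 0.100, adjusted p = 9.11e-09). Its dry arrays stayed above 20 units. LCR72 did not pass in the fit to the 6 arrays either (adjusted p = 0.202), nor with 64 added before the logarithm, where its log2 difference was -0.74.

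The DUF1216 proteins, a plant family named after a domain of unknown function, were lowered in 3 genes. AT3G28830 had 5.04, 6.27 and 5.197 in dry seed, against 83.2, 134 and 118 in freshly harvested seed (log2 difference -2.55 ± 0.089, adjusted p = 6.29e-15). AT3G28750 had 16.4, 27.8 and 30.02 in dry seed, against 216, 208 and 228 in freshly harvested seed (log2 difference -2.53 ± 0.099, adjusted p = 3.89e-14). The first was near 5 units on every dry array, and the second still measured 16 to 30 there, yet both had complete separation of the groups. AT5G61720 had 4.56, 4.62 and 4.52 in dry seed, against 33.4, 65.7 and 56.3 in freshly harvested seed (log2 difference -1.69 ± 0.095, adjusted p = 2.60e-11). AT3G28750 and AT3G28830 lie 9 genes apart in a run of related genes on chromosome 3, and other genes of that family and region varied in size and direction. AT3G28790 had 5.65, 5.93 and 5.81 in dry seed, against 22.4, 35.1 and 22.98 in freshly harvested seed (log2 difference -0.96 ± 0.12, adjusted p = 3.08e-05). AT3G28980 had 5.65, 5.91 and 7.85 in dry seed, against 37.6, 13.04 and 21.7 in freshly harvested seed (log2 difference -0.79 ± 0.14, adjusted p = 0.00215), which passed on adjusted p but fell short of the size threshold. AT3G28770 was higher in dry seed on adjusted p alone, at 9.61, 7.80 and 9.42 in dry seed, against 7.10, 6.62 and 6.24 in freshly harvested seed (log2 difference 0.14 ± 0.020, adjusted p = 1.27e-04). All 6 of these values were under 10 units, near the bottom of the scale, so this rise is one between dim values. AT3G28780 averaged 3.74 ± 0.0512 in dry seed and 5.03 ± 2.15 in freshly harvested seed, and its 1 high value was in freshly harvested replicate 3. AT3G28840 averaged 4.41 ± 0.0707 in dry seed and 4.39 ± 0.0310 in freshly harvested seed. In the fit to the 6 arrays alone AT3G28830 and AT3G28750 passed and AT5G61720 did not.

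Proteins of the Ole e 1 family, named after the major allergen of olive pollen, were lowered in 2 genes. AT5G45880 had 119.8, 51.1 and 86.2 in dry seed, against 326, 311 and 282 in freshly harvested seed (log2 difference -1.72 ± 0.17, adjusted p = 3.56e-07). AT1G29140 had 5.32, 5.47 and 5.39 in dry seed, against 58.2, 29.7 and 52.7 in freshly harvested seed (log2 difference -1.52 ± 0.095, adjusted p = 1.38e-10). AT5G45880 kept over 50 units on each dry array, whereas AT1G29140 was at 5 on all 3. Among genes of the cell interior, PLIM2a encodes a LIM-domain protein that binds and bundles actin filaments in pollen. It had 6.03, 6.75 and 6.56 in dry seed, against 92.3, 80.8 and 71.4 in freshly harvested seed (log2 difference -2.11 ± 0.059, adjusted p = 1.20e-16), and the spread within each group was small beside the gap between them. Of 2 calcium-binding EF-hand genes, AT4G03290 had 7.41, 7.41 and 7.59 in dry seed, against 41.7, 40.1 and 63.8 in freshly harvested seed (log2 difference -1.44 ± 0.075, adjusted p = 5.57e-12). The other, AT3G03430, had 7.49, 6.23 and 6.17 in dry seed, against 47.3, 40.1 and 16.9 in freshly harvested seed (log2 difference -1.11 ± 0.13, adjusted p = 8.03e-06). Freshly harvested replicate 3 was the low array for AT3G03430, and without freshly harvested seed replicate 1 its log2 difference was -0.93, outside the threshold. Of these 5 genes, the fit to 6 arrays called PLIM2a alone.

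**Figure D2:**
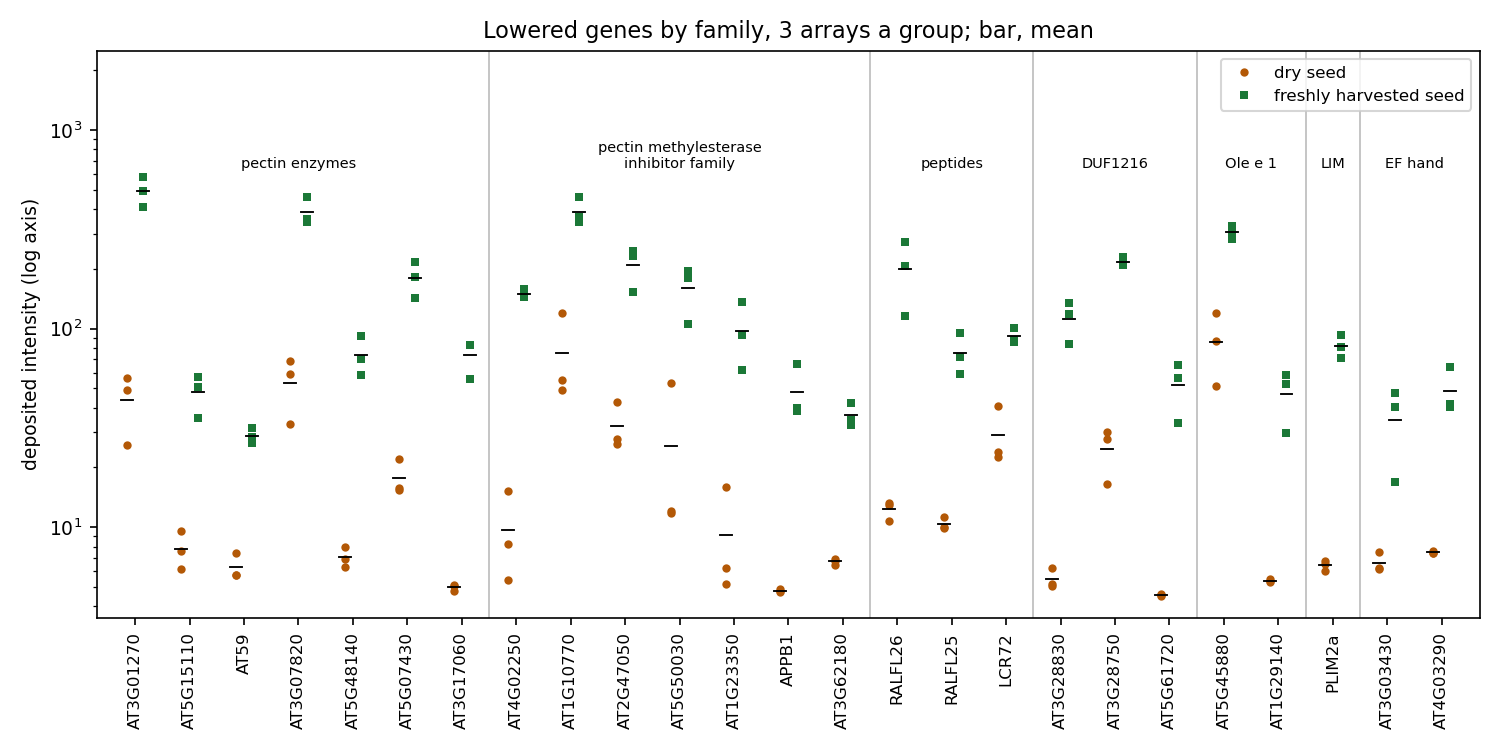
Deposited intensity (log axis) of 25 lowered genes grouped by protein family, with the 3 dry arrays (orange circles) left of the 3 freshly harvested arrays (green squares) and a bar at each mean. In every gene the green squares lie above the orange circles, and many dry values sit between 4 and 10 units.

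The other 21 named genes that were lower carry more diverse annotations. AT1G78460 had 27.2, 7.67 and 12.6 in dry seed, against 163, 175 and 144 in freshly harvested seed (log2 difference -2.52 ± 0.14, adjusted p = 2.93e-11). AT3G26110 had 5.55, 5.18 and 5.31 in dry seed, against 94.4, 138 and 92.4 in freshly harvested seed (log2 difference -2.52 ± 0.096, adjusted p = 2.72e-14). AT5G26700, of the cupin superfamily to which seed storage globulins also belong, had 9.77, 6.90 and 7.58 in dry seed, against 98.98, 113 and 143 in freshly harvested seed (log2 difference -2.47 ± 0.16, adjusted p = 4.44e-10). Dry values of AT3G26110 and AT5G26700 were all under 10, whereas dry replicate 1 of AT1G78460 stood above its group. AT3G01240 lies 3 genes from the pectate lyase gene AT3G01270 and had 173, 93.9 and 62.4 in dry seed, against 409.8, 566 and 453 in freshly harvested seed (log2 difference -2.05 ± 0.20, adjusted p = 5.42e-07). Dry replicate 1 was the highest dry array for this gene, as it was for AT3G01270. AT5G15140, which lies 3 genes from the pectate lyase gene AT5G15110, had 14.7, 10.2 and 15.73 in dry seed, against 69.98, 32.5 and 34.9 in freshly harvested seed (log2 difference -1.02 ± 0.13, adjusted p = 3.60e-05). Its log2 difference was -0.94 without dry seed replicate 2 and -0.76 without freshly harvested seed replicate 1, its highest array, so this call rested on single arrays.

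Several of the remaining genes code for enzymes or stress proteins. AT5G39880 had 26.3, 46.03 and 38.97 in dry seed, against 232, 186 and 192 in freshly harvested seed (log2 difference -2.06 ± 0.13, adjusted p = 1.41e-10). AT5G19580, related to glyoxal oxidases, had 19.3, 35.7 and 16.1 in dry seed, against 111, 151 and 165 in freshly harvested seed (log2 difference -2.01 ± 0.13, adjusted p = 1.37e-10). AT5G47000, a class III peroxidase, had 5.75, 4.57 and 7.42 in dry seed, against 55.1, 82.8 and 81.3 in freshly harvested seed (log2 difference -2.01 ± 0.072, adjusted p = 1.09e-14). All 3 separated the groups by a wide margin. AT5G38760, of the LEA family, had 33.05, 5.49 and 5.63 in dry seed, against 80.1, 105 and 68.3 in freshly harvested seed (log2 difference -1.81 ± 0.18, adjusted p = 7.85e-07). AT5G54095 had 32.5, 7.33 and 11.9 in dry seed, against 102, 119 and 113 in freshly harvested seed (log2 difference -2.01 ± 0.18, adjusted p = 6.58e-08). For both genes dry replicate 1 was well above the other dry arrays. GH9A4, a glycosyl hydrolase of a family that holds plant cellulases, had 6.17, 9.67 and 7.43 in dry seed, against 54.7, 30.2 and 48.1 in freshly harvested seed (log2 difference -1.32 ± 0.093, adjusted p = 1.24e-09). AT4G25780, of the CAP superfamily of secreted proteins, had 5.01, 6.62 and 7.34 in dry seed, against 46.3, 46.5 and 47.4 in freshly harvested seed (log2 difference -1.49 ± 0.090, adjusted p = 7.92e-11), with the 3 freshly harvested arrays almost equal. AT3G61160, a shaggy-like protein kinase, had 20.6, 9.63 and 11.9 in dry seed, against 52.5, 66.6 and 92.2 in freshly harvested seed (log2 difference -1.52 ± 0.15, adjusted p = 3.83e-07). Freshly harvested replicate 3 was its highest array, and no dry array came near the lowest freshly harvested one.

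The last 8 of these genes fell by less than 2 on the log2 scale. AT3G62710 averaged 5.01 ± 0.498 in dry seed and 55.3 ± 5.56 in freshly harvested seed (-1.76). AT1G54070 averaged 4.63 ± 0.212 in dry seed and 54.5 ± 19.8 in freshly harvested seed (-1.73). AT2G27180 averaged 5.43 ± 0.0621 in dry seed and 48.6 ± 12.7 in freshly harvested seed (-1.57). AT3G26860 averaged 13.4 ± 8.38 in dry seed and 70.6 ± 21.5 in freshly harvested seed (-1.56). In dry seed AT3G62710, AT1G54070 and AT2G27180 were near 5 units, and AT3G26860 was above them. AT4G27580 averaged 9.22 ± 3.74 in dry seed and 55.4 ± 10.9 in freshly harvested seed (-1.500). AT1G68110, of the ENTH/VHS family of membrane-trafficking adaptors, averaged 6.46 ± 0.370 in dry seed and 48.7 ± 16.999 in freshly harvested seed (-1.496). AT3G16040 averaged 27.5 ± 3.79 in dry seed and 85.2 ± 25.4 in freshly harvested seed (-1.19), and the remaining gene, AT1G47280, averaged 7.22 ± 0.882 in dry seed and 31.5 ± 9.38 in freshly harvested seed (-1.01). AT1G47280 was the least stable of them, at -0.98 without dry seed replicate 3, -0.95 without freshly harvested seed replicate 1 and -0.90 without freshly harvested seed replicate 2. Of the 21 genes outside the protein families above, 6 passed in the fit to the 6 arrays alone: AT3G26110, AT5G26700, AT5G39880, AT5G47000, AT3G62710 and AT4G25780.

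Just outside the size threshold lay CHI, a chitinase, with 24.1, 22.3 and 18.999 in dry seed, against 61.9, 55.04 and 58.2 in freshly harvested seed (log2 difference -0.98 ± 0.092, adjusted p = 2.18e-07). AT3G05610, a further pectin methylesterase, had 4.97, 4.63 and 4.65 in dry seed, against 10.1, 34.9 and 34.2 in freshly harvested seed (log2 difference -0.97 ± 0.14, adjusted p = 1.46e-04). The groups of both were fully separate, although freshly harvested replicate 1 of AT3G05610 was much lower than the other 2 arrays. AT5G07420, a methylesterase gene of the neighbouring locus number to AT5G07430, had 4.81, 6.58 and 5.09 in dry seed, against 26.497, 23.2 and 11.2 in freshly harvested seed (log2 difference -0.73 ± 0.088, adjusted p = 1.06e-05). Other falls below the threshold that passed on adjusted p included AT3G62640 (-0.87), AT1G19500 (-0.87), AT5G25340 (-0.80), AT4G01040 (-0.75) and AT5G17280 (-0.74). In all, 124 probe sets were lower on adjusted p with a smaller change.

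Genes known from pollen were followed in 5 lists of 123 loci, of which 44 have a probe set that names only that gene. Of these 44, 14 were called lower and 18 were lower on adjusted p alone, beside 0.321% and 0.866% of all probe sets. Another 1, AT3G28770, near the bottom of the scale, was higher on adjusted p alone, beside 0.734%. The lists were chosen with earlier results of these data known. These counts and the sums below are therefore not independent of the values and describe the lists only. The 14 called were 7 in the fit to the 6 arrays alone and 9 with 64 added before the logarithm. The median over the 44 was -0.14 against 0.01 over all probe sets, and their summed intensity ranged over the arrays from 835 to 995 in dry seed and 3046 to 3701 in freshly harvested seed. Pectin and cell wall enzymes had 8 of 11 members lower, with sums of 193 to 327 in dry seed and 1565 to 2065 in freshly harvested seed. Arabinogalactan, DUF1216 and Ole e 1 proteins had 4 of 9 lower, with sums of 119 to 176 in dry seed and 743 to 759 in freshly harvested seed. Signalling peptides and receptors had 2 of 10 lower, RALFL25 and RALFL26, with sums of 120.5 to 144 in dry seed and 338 to 472 in freshly harvested seed.

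Other pollen genes that were not called ranged from the bottom of the scale to clear signal in both groups, and 28 of the 44 members averaged under 32 units in both. Among those at the bottom, picked after their values were seen, the pollen tube receptor kinases ANX1, ANX2, BUPS1 and BUPS2, which bind RALF peptides, averaged between 4 and 7 units in both, with ANX1 at 5.54 ± 0.288 in dry seed and 5.67 ± 0.728 in freshly harvested seed. ACT12, a pollen actin, averaged 4.85 ± 0.0768 in dry seed and 5.32 ± 1.21 in freshly harvested seed. MGH3, a sperm cell histone, averaged 6.92 ± 2.47 in dry seed and 6.39 ± 1.59 in freshly harvested seed. None of these passed the test. Among leucine-rich repeat extensins of pollen tubes, LRX8 passed on adjusted p only and had 7.27, 8.91 and 9.17 in dry seed, against 20.7, 12.2 and 12.3 in freshly harvested seed (log2 difference -0.34 ± 0.066, adjusted p = 0.00659). LRX9 had 16.1, 8.10 and 9.07 in dry seed, against 24.8, 10.04 and 21.8 in freshly harvested seed (log2 difference -0.35 ± 0.12, adjusted p = 0.182). LRX10 averaged 60.7 ± 14.7 in dry seed and 66.1 ± 19.8 in freshly harvested seed (-0.09). The arrays of the 2 groups overlapped for LRX9 and LRX10. The list of pollen cytoskeleton, transport and transcription factors had 0 of 13 members called, with sums of 335 to 397 in dry seed and 376 to 413 in freshly harvested seed. TUB9, a tubulin and the largest part of these sums, averaged 240.1 ± 26.8 in dry seed and 257 ± 10.04 in freshly harvested seed. It averaged 629 at 12 h of stratification and 775 after 48 h of light, so it is not particular to pollen. The MADS-box gene AGL65 averaged 39.9 ± 11.2 in dry seed and 33.8 ± 6.82 in freshly harvested seed. The part of RNA from pollen in the differences between the groups was not tested.

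Markers of other tissues that a seed harvest could carry did not pass, though few of them are named. All 3 tapetum and all 4 silique members averaged under 16 units in both groups. From such levels a fall in dry seed could not reach the size threshold. In the tapetum, the anther layer that feeds pollen, 0 of 3 named members of 28 were called. A9 averaged 5.96 ± 0.340 in dry seed and 5.66 ± 0.196 in freshly harvested seed. AMS, a regulator of tapetum development, averaged 6.53 ± 1.17 in dry seed and 6.48 ± 1.44 in freshly harvested seed. EXL5, of a pollen coat lipase family, averaged 10.96 ± 2.70 in dry seed and 11.2 ± 6.67 in freshly harvested seed. In the silique wall and ovule, 0 of 4 named members of 11 were called. SPT, a regulator of carpel growth, averaged 15.6 ± 4.40 in dry seed and 13.7 ± 2.62 in freshly harvested seed. It averaged 76.3 at 48 h of stratification and 282 after 12 h of light, so it is not particular to the silique. ADPG1, a polygalacturonase of pod opening, averaged 10.3 ± 0.973 in dry seed and 10.2 ± 1.55 in freshly harvested seed. Leaf photosynthesis genes had 0 of 5 named members of 36 called. The antenna protein gene LHCB4.1 averaged 179 ± 28.9 in dry seed and 170.2 ± 17.7 in freshly harvested seed, and LHCB4.2 averaged 117 ± 14.2 in dry seed and 93.2 ± 13.03 in freshly harvested seed. None of the 9 flower organ identity genes has a probe set that names it alone. Summed intensity overlapped between the groups for the tapetum (21.4 to 24.8 in dry seed, 18.3 to 32.5 in freshly harvested seed) and for the silique list (34.8 to 45.8 in dry seed, 36.7 to 41.4 in freshly harvested seed). For leaf photosynthesis it was 303 to 336 in dry seed and 285 to 292 in freshly harvested seed, without overlap.

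**Figure D3:**
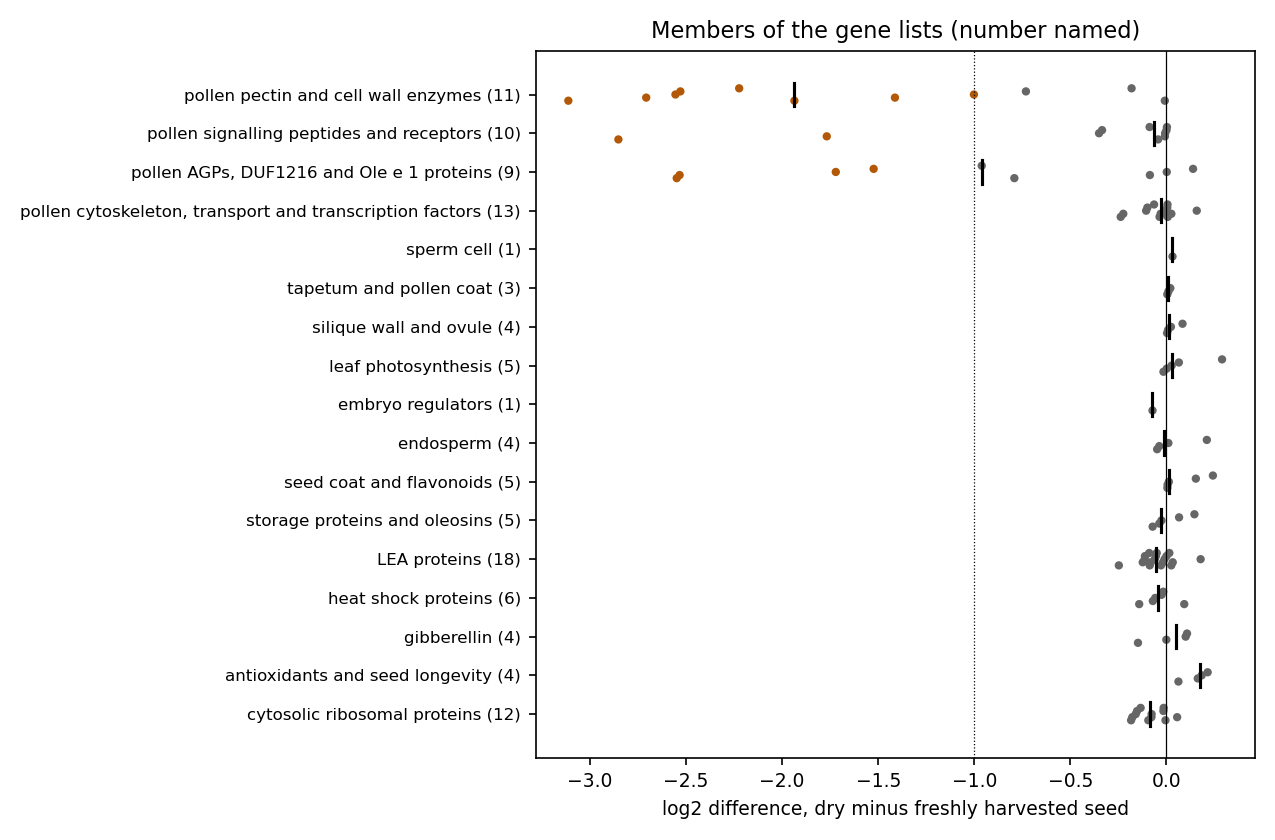
Log2 difference, dry minus freshly harvested seed, of each named member (point) of 17 gene lists, with the number named in brackets and a bar at each list's median; orange points were called lower and the dashed line marks -1. The called members lie in the first 3 pollen lists, and the members of the other lists lie within 0.3 of 0.

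Transcripts that mark the mature seed, the labelled tissue, were measured in both groups and passed no test in either direction. Group means of the named storage and oleosin genes ran from 576 to 23859, and those of the LEA genes from 474 to 29111. Storage proteins and oleosins had 0 of 5 members called and a median of -0.03. PAP85, a vicilin-like storage globulin, averaged 23246 ± 367 in dry seed and 23859 ± 328 in freshly harvested seed. OLEO3, an oil body protein, averaged 640.2 ± 66.9 in dry seed and 576 ± 38.2 in freshly harvested seed. The 95% intervals of the 5 differences ran from -0.43 to 0.44. LEA proteins had 0 of 18 called with a median of -0.05 and intervals from -0.67 to 0.45; the lowered LEA-family gene AT5G38760 is not on that list. LEA76 averaged 28559 ± 1401 in dry seed and 29111 ± 598 in freshly harvested seed. LEA4-1 averaged 16436 ± 207 in dry seed and 17032 ± 543 in freshly harvested seed. Small heat shock proteins had 0 of 6 called with a median of -0.04. HSP17.6B averaged 1575 ± 137 in dry seed and 1655 ± 124 in freshly harvested seed. HSP17.6C averaged 1362 ± 109.7 in dry seed and 1418 ± 101 in freshly harvested seed.

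Embryo, endosperm and seed coat lists likewise held no call. SMZ, the 1 of 14 members of the embryo list named alone by a probe set, averaged 20.3 ± 3.41 in dry seed and 22.6 ± 7.31 in freshly harvested seed. It averaged 145 after 48 h of light, so it is not particular to the embryo. The endosperm list had 0 of 4 called. AGL62, a regulator of endosperm cellularisation, averaged 9.60 ± 1.90 in dry seed and 9.39 ± 0.746 in freshly harvested seed. The seed coat list had 0 of 5. SBT1.7, a subtilase needed for mucilage release, averaged 479 ± 71.1 in dry seed and 426 ± 29.1 in freshly harvested seed. UGT78D2, a flavonoid glucosyltransferase, averaged 253 ± 42.6 in dry seed and 211 ± 31.8 in freshly harvested seed. Of gibberellin genes, whose hormone promotes germination, 4 of 24 are named and 0 were called. The receptor gene GID1A averaged 445 ± 41.2 in dry seed and 494 ± 45.04 in freshly harvested seed, and GID1C averaged 51.4 ± 7.63 in dry seed and 46.9 ± 7.36 in freshly harvested seed. SLY1, an F-box gene of the same pathway, averaged 79.6 ± 20.98 in dry seed and 71.5 ± 4.31 in freshly harvested seed. None of 28 abscisic acid and dormancy genes has a probe set naming it alone, so that pathway could not be followed by name. Antioxidant and longevity genes had 0 of 4 called and a median of 0.17. TRXM2, a plastid thioredoxin, had 331, 334 and 334 in dry seed, against 295, 282 and 278 in freshly harvested seed (log2 difference 0.21 ± 0.057, adjusted p = 0.0597), with every dry array above every freshly harvested one but an adjusted p over the threshold. GR1, a glutathione reductase, averaged 374 ± 18.9 in dry seed and 358 ± 18.7 in freshly harvested seed. Cytosolic ribosomal proteins had 0 of 12 called and a median of -0.09. RPS9B averaged 2339 ± 85.4 in dry seed and 2502 ± 186 in freshly harvested seed. RPL7AB averaged 1938 ± 48.9 in dry seed and 2131 ± 124 in freshly harvested seed. In 3 of those 12, RPL7B, RPL7AB and RPS3AA, named after their values were seen, each dry array lay below each freshly harvested array, beside 3.36% of all probe sets. The summed intensity of this list was 13745 to 14480 in dry seed and 14717 to 15155 in freshly harvested seed, without overlap.

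Rises in dry seed were small. No probe set reached a log2 difference of 1, and the highest, an unnamed one, stood at 0.74. Among genes with an adjusted p under 0.05 the largest rise was that of AT2G29670, with 29.5, 40.8 and 18.9 in dry seed, against 12.3, 14.4 and 10.00 in freshly harvested seed (log2 difference 0.67 ± 0.14, adjusted p = 0.0104). AT4G17215 had 20.4, 33.8 and 27.6 in dry seed, against 10.5, 8.77 and 14.3 in freshly harvested seed (log2 difference 0.66 ± 0.075, adjusted p = 4.01e-06). Dry arrays exceeded freshly harvested ones throughout, although dry replicate 3 of AT2G29670 came near them. COB, the COBRA protein that orients cellulose deposition in expanding cells, had 87.7, 85.98 and 98.3 in dry seed, against 53.6, 39.5 and 73.8 in freshly harvested seed (log2 difference 0.60 ± 0.13, adjusted p = 0.0157). AT3G42500 had 72.9, 80.1 and 111 in dry seed, against 45.2, 54.8 and 53.6 in freshly harvested seed (log2 difference 0.62 ± 0.15, adjusted p = 0.0312). AT1G14270 had 50.2, 53.7 and 41.5 in dry seed, against 32.3, 12.1 and 34.8 in freshly harvested seed (log2 difference 0.65 ± 0.15, adjusted p = 0.0286). Freshly harvested replicate 2 of AT1G14270 was well below the other 2, and the groups remained separate. AT4G32030, whose dry replicate 2 lay below freshly harvested replicate 3, averaged 33.5 ± 8.58 in dry seed and 16.6 ± 7.53 in freshly harvested seed (0.61). The rest of the 10 largest were AT1G51430 (0.55), AT4G29440 (0.54), AT1G42250 (0.54) and AT5G46730 (0.52).

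**Figure D4:**
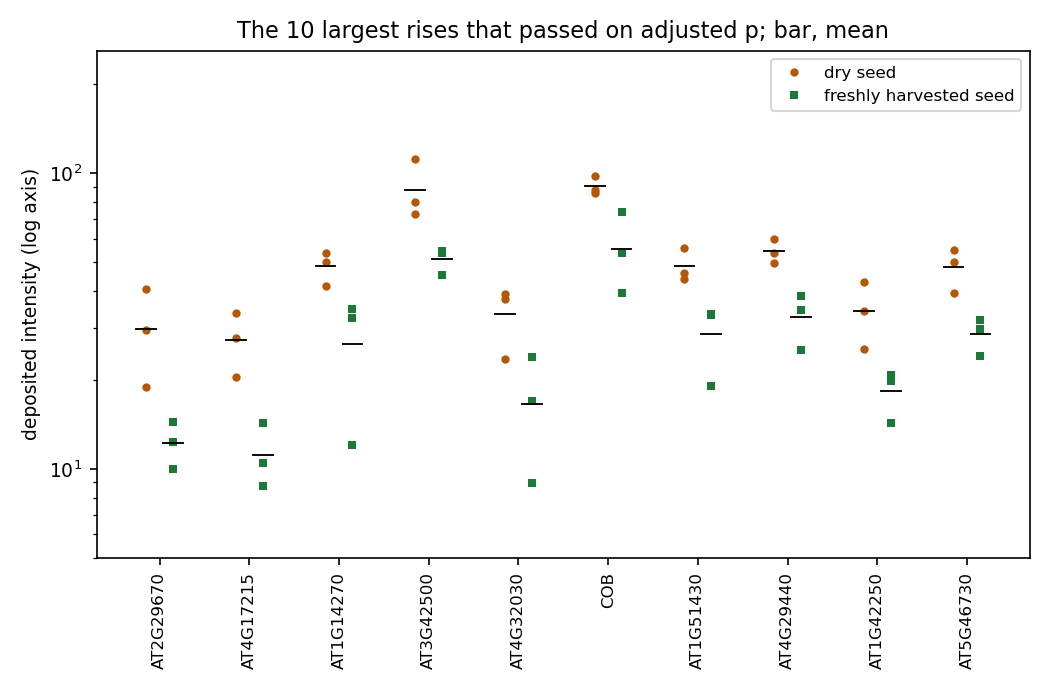
Deposited intensity (log axis) of the 10 genes with the largest rises at an adjusted p under 0.05, dry arrays (orange circles) left of freshly harvested arrays (green squares), with a bar at each mean. The separation is narrower than among the lowered genes, with log2 differences from 0.52 to 0.67, and the groups of AT4G32030 overlap.

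The transcripts lowered in dry seed were followed through the later groups, whose means had no part in the contrast that chose them, although their spread entered the fit. For all 73 probe sets the highest of the 10 group means was that of freshly harvested seed, the mean on which they were chosen. Of all probe sets, 9.81% had their highest mean there. A mean of 32 or more was reached by 70 of them at harvest, 13 in the dry state, 16 after 1 h of stratification, 3 after 12 h and 1 after 48 h. From 1 to 12 h of stratification 12 of the 73 were called lower again (16.4%), against 0.888% of all probe sets, and 0 were called higher. Of the 16 that still measured 32 or more at 1 h, 11 were among those 12. The share called lower among all probe sets at that level was not counted, so this count has no background. At 1 h the median group mean was 11.9 over all probe sets and 12.7 over the 73. From such levels a fall could not reach the size threshold. Over the same 73 probe sets, 2 were called lower at this step with 64 added before the logarithm, and 26 with 1 added.

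The polygalacturonase gene AT3G07820 averaged 66.4 ± 8.11 at 1 h and 10.00 ± 3.68 at 12 h of stratification (SD, n = 3 each), a log2 difference, 12 h minus 1 h, of -1.67 (adjusted p = 1.62e-09). AT3G01240 averaged 118 and 27.2 at these times (-1.62, adjusted p = 2.29e-06). The Ole e 1 gene AT5G45880 averaged 101 and 39.5 (-1.09, adjusted p = 3.04e-05). AT5G19580 and the methylesterase gene AT5G07430 were the other named genes called lower at this step, at -1.10 and -1.002. An unnamed probe set, the green line in the plot of the course, had 1493, 1082 and 906 in dry seed, against 3439, 3971 and 3376 in freshly harvested seed. It then averaged 843, 189 and 54.9 at 1, 12 and 48 h of stratification and 24.3 after 1 h of light.

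A few genes did not stay low. AT4G25780, which averaged 6.32 ± 1.19 in dry seed and 46.7 ± 0.545 in freshly harvested seed, had 16.9 and 29.3 at 12 and 48 h of stratification and 32.97 after 1 h of light. It was lower again at 6, 12 and 24 h of light, at 11.3, 11.01 and 13.8, and had 40.5 after 48 h. AT1G78460 reached 25.3 after 48 h of light, and the kinase gene AT3G61160 21.9 after 12 h. The remaining lowered probe sets were at low levels by then, 71 of the 73 averaging under 16 after 48 h of light. Over all probe sets the median group mean at that time was 19.2.

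**Figure D5:**
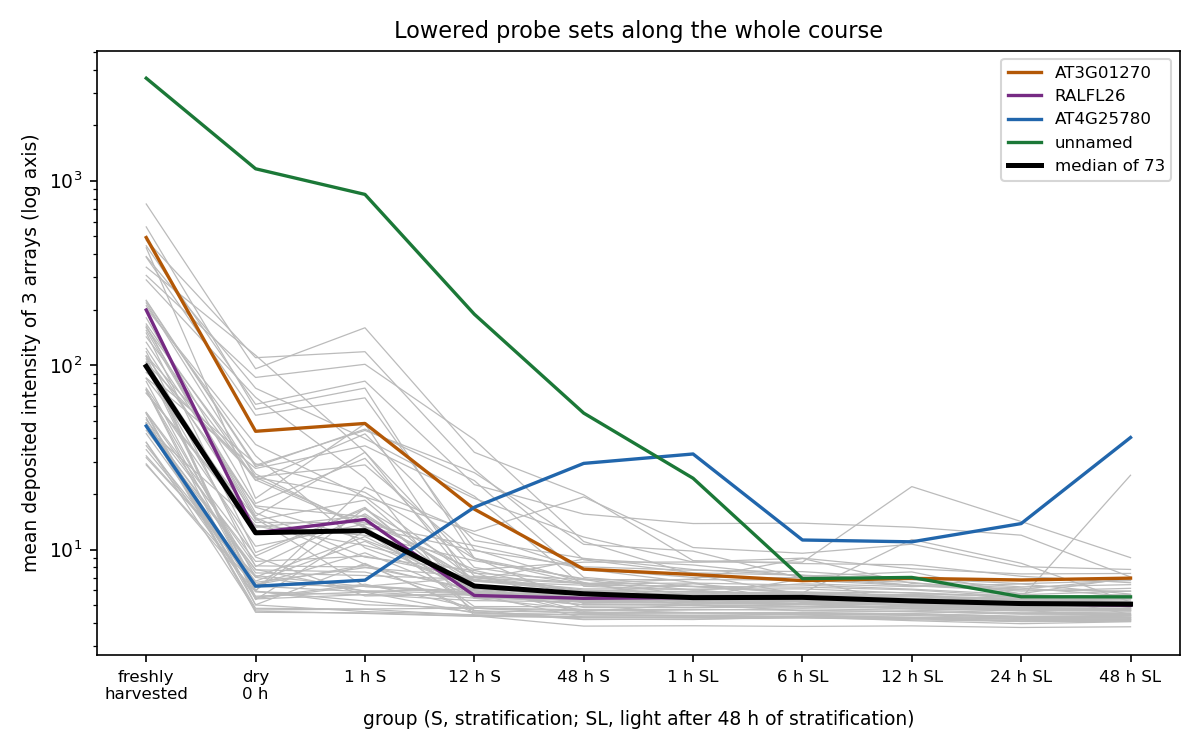
Mean deposited intensity of 3 arrays (log axis) of each of the 73 lowered probe sets in the 10 groups in order of time, with the median in black and 4 examples in colour; S is stratification and SL light after 48 h of stratification. The median is 98.4 in freshly harvested seed, 12.3 in dry seed, 6.34 after 12 h of stratification and 5.05 after 48 h of light, and AT4G25780 has 32.97 after 1 h of light, 11.3 after 6 h and 40.5 after 48 h.

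The sources used here do not say whether the 3 replicates of a group come from separate plants or harvests. The p-values therefore reflect the spread between arrays within groups, part or all of which may be technical. In the main fit that spread was taken from all groups of the course. Most later groups were near the bottom of the scale and varied little for the lowered probe sets. The main p-values can therefore be too small for the groups compared. With the spread taken from only the arrays compared, and so from fewer arrays, 28 of the 73 passed. Having 3 arrays per group also limits the precision of each value. No detection calls were used, so intensities near 5 units bound a transcript's level without measuring it.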

How the data were processed

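Biotin-labelled RNA from 400 ng of total RNA per sample was hybridized to one-colour Affymetrix arrays, per the labels' protocols. The authors deposited 1 intensity per probe set and array, linear in scale, summarized and normalized. The tools listed per the submitters' processing notes are MAS5, RMA and Partek; their order, versions and part in these values are not given in the sources used here. Of 22810 probe sets, 64 controls were set aside. Groups and replicate numbers were taken from the sample titles, and no 2 arrays were identical. From the deposited intensities log2(value + 16) was computed. The model (limma 3.58.1 under R 4.3.3; lmFit, eBayes) gave each of the 10 groups its own mean over 30 arrays, with 20 residual and 1.2052 prior degrees of freedom. The contrast was dry minus freshly harvested seed, with 12 h minus 1 h of stratification for the later course. A call needed an adjusted p (Benjamini-Hochberg over 22746 probe sets) under 0.05 and a log2 difference of at least 1 in size. The procedure was tested on simulated data with known changes, drawn with the same spread in every group. Such data cannot show what happens where the groups differ in spread. Plots were drawn with matplotlib 3.10.9, pandas 2.3.3 and numpy 2.4.6 under Python 3.11.15.

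Gene names come from the platform annotation (13513 probe sets name 1 gene, 503 several, 8730 none), of which 13436 were found in the RefSeq gene table, used only for names, chromosomes and neighbours. Named genes were, among probe sets naming 1 gene, the called ones (up to 45 in each direction by size, with AT59 as a list member), the 10 largest rises and 10 largest falls with an adjusted p under 0.05 and a smaller difference, called members and up to 4 others of highest mean intensity of each of 19 lists (423 loci), and neighbours of neighbouring called genes; pollen markers at the bottom of the scale were added after their values were seen. The members and lists were chosen with earlier results of these data known. Alternatives were pseudocounts of 1 and 64, a fit to the 6 arrays alone, leaving out probe sets with a mean under 32, quantile normalization, median centring, a replicate block, eBayes with trend and robust, and leaving out each array in turn.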

Additional observations from a re-analysis of the deposited data

How the results depend on the processing

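The count of 73 probe sets lower in dry seed was 127 after adding 1, 38 after adding 64 in place of 16 as the pseudocount, and 28 with only the 6 arrays compared. It was 49 with dim probe sets left out, 82 after quantile normalization, 74 after median centring, 73 with the replicate block, 73 with the trend and robust options of eBayes and 72 to 86 with each array left out in turn. The count of 0 higher was 6 with a pseudocount of 1 and 0 under the other settings. Of the 73, 12 were called lower again from 1 to 12 h of stratification; over the same 73 the count was 26 with 1 added, 2 with 64 added and 12 under the other settings; the fit to 6 arrays holds no stratified seed and was not run for it. Of the 73, 70 to 72 still passed without one array. The 14 lowered members of the pollen lists, a result added after the data were seen, were 17 and 9 with pseudocounts of 1 and 64, 7 with the 6 arrays alone and 13 to 15 with one array left out. Of the 46 named genes, 20 passed with a pseudocount of 64 and 16 with the 6 arrays alone, and 0 changed sign under any of these settings. A larger pseudocount shrinks the difference of dim genes by construction, and the fit to 6 arrays has fewer arrays to estimate the spread from. AT3G01270, AT4G02250, AT3G28830, AT3G28750, AT5G07430, AT3G26110, AT5G26700, PLIM2a and AT5G39880 passed under every setting run. Same-numbered dry and freshly harvested arrays correlated at -0.26, -0.17 and 0.01 in their deviations from the group means. Pairs of unlike number ranged from -0.19 to 0.27. These correlations cannot say whether replicates of the 2 groups share a harvest or a batch. Of the 73, 46 had a dry mean under 16 units. No detection calls were used, so how well such levels were measured is not known.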

Other observations

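The 69 probe sets of plastid genes varied widely within both groups and none was called. Their median log2 difference, dry minus freshly harvested, was -0.49, against 0.01 over all probe sets. Their median intensity was 561, 251 and 96.1 in dry seed, against 221, 359 and 545 in freshly harvested seed, so the groups overlapped. psbB, a core protein of photosystem II, had 291, 24.0 and 6.20 in dry seed, against 23.0, 106 and 330.0 in freshly harvested seed. rbcL, the large subunit of Rubisco, had 329.6, 59.3 and 18.1 in dry seed, against 64.6, 163 and 308 in freshly harvested seed. Within dry seed both genes were highest in replicate 1 and lowest in replicate 3, and within freshly harvested seed the order ran the opposite way.

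Of the lowered named genes that the reference table places on a nuclear chromosome, 15 of 45 (33.3%) lie on chromosome 3, which holds 20.5% of the tested named probe sets, and 13 on chromosome 5. The chromosome 3 genes include RALFL25 with RALFL26, AT3G28750 with AT3G28830 and AT3G01240 with AT3G01270, pairs within 10 genes of each other. The probe set with the largest fall of all names several genes and had 25.5, 22.8 and 8.54 in dry seed, against 405, 446 and 447 in freshly harvested seed (log2 difference -3.72), and the unnamed probe set with the largest fall had 82.9, 39.9 and 50.2 in dry seed, against 485, 594 and 606 in freshly harvested seed (-3.01).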
